A study of Mus musculus with 2 samples.

Results

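Resident-like macrophages of the infarcted mouse heart were followed as barcodes that carried *Lyve1*, *Folr2*, *Cd163* and *Timd4*. A barcode stands for 1 droplet, and a UMI for 1 counted molecule. A barcode was taken at 3000 or more UMIs, 500 or more genes, at most 10% mitochondrial UMIs and at least 0.4% *Malat1* UMIs. It also needed at least 5 UMIs of the 4 genes in all with 2 or more of them detected, at least 1 UMI of *Csf1r*, the macrophage growth factor receptor, and no more than 2 UMIs of the endothelial gene *Cdh5*. This gave 147 barcodes, 77 of the WT library and 70 of the library labelled CD40-KO, of 6873 that met all limits except that on the 4 genes and of 18770 in both libraries.

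Macrophages had been sorted on CD45, CD11b and CD64 out of infarcted mouse hearts at day 3. There were 2 groups, WT and CD40-KO, both infarcted, with 1 library each made with the 10x Genomics 3′ v3 kit. The knockout allele, strain, age, sex and the number of pooled mice are, in the sources used here, not given. With 1 library per group no test between groups was possible, intervals are exact 95% intervals that cover counting error only, and each direction compares 2 libraries.

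Resident cardiac macrophages are seeded before birth and keep their numbers largely by dividing in place. They clear dying cells and debris and are known for *Lyve1*, *Folr2*, *Cd163* and *Timd4* with little *Ccr2*, the chemokine receptor that brings monocytes out of the blood. After an infarct many resident cells die in the injured zone and monocyte-derived cells, which can take up part of the resident programme, outnumber them.

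The WT library held 10624 barcodes and 139343516 UMIs, the CD40-KO-labelled library 8146 barcodes and 90057108 UMIs, with medians of 9353.5 and 5346.5 UMIs per barcode. The *Malat1* limit, which removes barcodes poor in nuclear RNA, left out 2174 barcodes in WT and 2546 in the CD40-KO-labelled library. The libraries shared 23 barcode sequences, and 0 barcodes were resident-like in both. *Cd40*, the targeted gene, had 58 UMIs in WT resident-like barcodes (21.2 CPM, counts per 1000000 UMIs) and 37 in the CD40-KO-labelled library (13.0 CPM), a log2 ratio of -0.70 (-1.33 to -0.08). In the other *Csf1r*-positive barcodes its log2 ratio was -0.10. The deleted part of the gene is not given, so a 3′ count cannot check the label.

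The 4 genes that chose the barcodes differ in what they do. *Lyve1* encodes a hyaluronan receptor (chromosome 7, 110850607 to 110863239, minus strand, mm10), *Folr2* the folate receptor beta (chromosome 7, 101839988 to 101857194, minus strand) and *Cd163* the scavenger receptor for haemoglobin bound to haptoglobin (chromosome 6, 124304656 to 124330527, plus strand). *Timd4* encodes TIM4, a receptor for phosphatidylserine on dying cells (chromosome 11, 46810800 to 46844332, plus strand). Their start regions are the 250 bases before the start from RefSeq (GRCm38.p6), matched by symbol for 3 of the 4 genes. They are shown 5′ to 3′ on the gene's strand because these genes defined the cells. Beside them stands *Cbr2*, the leading gene of a resident macrophage list at a mean of 20 CPM. Capitals mark AGGAAG or its reverse complement CTTCCT, an ETS-type motif as bound by PU.1, and TGCTGA or TCAGCA, a part of the MAF site. *Folr2* lies at chr7:101857191-101857440 (minus), *Cd163* at chr6:124304401-124304650 (plus), *Timd4* at chr11:46810549-46810798 (plus) and *Cbr2* at chr11:120732022-120732271 (minus).
Folr2: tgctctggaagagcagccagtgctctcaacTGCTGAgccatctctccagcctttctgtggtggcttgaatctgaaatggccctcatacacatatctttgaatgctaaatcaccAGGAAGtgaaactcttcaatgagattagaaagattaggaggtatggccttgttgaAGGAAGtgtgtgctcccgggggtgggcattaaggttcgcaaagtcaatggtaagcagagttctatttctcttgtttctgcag
Cd163: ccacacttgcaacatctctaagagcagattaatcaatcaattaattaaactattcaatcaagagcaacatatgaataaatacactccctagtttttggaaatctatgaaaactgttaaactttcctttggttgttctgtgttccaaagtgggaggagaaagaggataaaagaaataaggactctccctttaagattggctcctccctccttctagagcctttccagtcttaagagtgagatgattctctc
Timd4: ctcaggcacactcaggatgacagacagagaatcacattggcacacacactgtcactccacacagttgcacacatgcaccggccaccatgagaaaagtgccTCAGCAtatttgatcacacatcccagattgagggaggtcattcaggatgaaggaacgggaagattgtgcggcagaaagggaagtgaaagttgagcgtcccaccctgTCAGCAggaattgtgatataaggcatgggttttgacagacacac
Cbr2: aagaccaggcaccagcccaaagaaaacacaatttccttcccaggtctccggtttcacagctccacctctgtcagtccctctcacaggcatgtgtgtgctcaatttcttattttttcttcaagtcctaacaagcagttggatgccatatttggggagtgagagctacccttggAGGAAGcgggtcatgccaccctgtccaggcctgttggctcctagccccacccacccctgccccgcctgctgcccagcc
The *Folr2* window shown held AGGAAG at 2 places and TGCTGA at 1, *Timd4* TCAGCA at 2 places, *Cbr2* AGGAAG at 1, and *Cd163* neither. A further *Folr2* start window, at chr7:101845332-101845581, held each motif at 1 place and is not shown. Of 32851 mouse start windows of this length 29.5% held the first motif and 16.1% the second on either strand. A match describes letters in a window and shows no binding.

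Most of the resident-like barcodes were defined by *Folr2* with *Cd163*, not by *Lyve1* or *Timd4*. *Folr2* was detected in 76 of 77 WT barcodes and 70 of 70 in the CD40-KO-labelled library, *Cd163* in 62 and 56, *Lyve1* in 23 and 23, and *Timd4* in 11 and 5. *Folr2* and *Cd163* without the other genes made up 48 barcodes (62.3%) and 45 (64.3%). *Lyve1* with *Folr2* made up 10 and 12, *Lyve1* with *Folr2* and *Cd163* 8 and 8, and all 4 genes were seen in 2 and 2. The label in full, with all 4 genes, thus held for 2 and 2 barcodes, while 29 and 25 carried *Lyve1* or *Timd4* with at least 1 other of the genes.

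As levels, *Lyve1* reached 28.1 CPM in WT against 22.9 in the CD40-KO-labelled library, *Folr2* 138 and 152, *Cd163* 89.0 and 61.7, and *Timd4* 6.57 and 2.47. These levels follow from the selection and carry no test. The log2 ratios of the CD40-KO-labelled library over WT were -0.29 (-0.79 to 0.20) for *Lyve1*, 0.14 (-0.07 to 0.34) for *Folr2*, -0.53 (-0.82 to -0.24) for *Cd163* and -1.41 (-2.92 to -0.09) for *Timd4*, which rests on 18 and 7 UMIs. Outside the selection *Folr2* was common, in 39.3% of the other *Csf1r*-positive barcodes of WT and 33.8% of the CD40-KO-labelled library, while *Lyve1*, *Cd163* and *Timd4* were rare there.

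*Cd163* was in 1.59% and 2.52% of those other barcodes, *Lyve1* in 0.217% and 0.620%, and *Timd4* in 0.241% and 0.426%. As a background, T, NK and B cell barcodes without *Csf1r* numbered 52 in WT and 18 in the CD40-KO-labelled library, with median depths of 4467 and 5583.5 UMIs against 31774 and 32846 in resident-like barcodes. None of the 52 and none of the 18 had a UMI of *Lyve1*, *Folr2* or *Cd163*, which allows shares of up to 5.77% and 16.7%, and 1 of the 18 had 3 UMIs of *Timd4*. At 3000 UMIs per barcode *Folr2* was seen in 44.2% and 42.9% of resident-like barcodes against 503 of 4146 and 283 of 2580 of the others. *Cd163* was seen in 28.6% and 18.6% against 0.265% and 0.698%. Both contrasts follow from the selection, which used these genes at full depth, and carry no test.

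The 4 genes together had 5 UMIs at the least, a median of 7 in WT and 8 in the CD40-KO-labelled library, and 46 and 32 at the most. Just inside the limit, 14 and 12 barcodes had 5 UMIs. Just outside it, 17 and 12 had 4 UMIs of 2 or more genes, and 236 and 129 had 5 or more UMIs of a single gene, which was *Folr2* in 235 and 127. *Folr2* alone thus reached the UMI limit in more barcodes than the rule took.

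**Figure D1:**
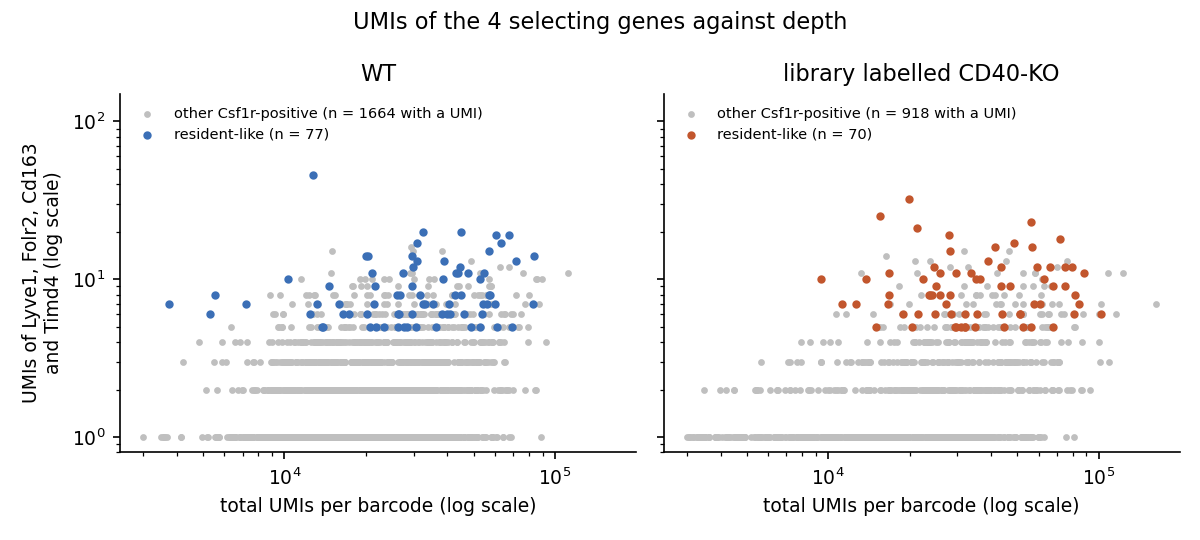
Total UMIs per barcode (horizontal, log scale) against UMIs of *Lyve1*, *Folr2*, *Cd163* and *Timd4* together (vertical, log scale) in WT and in the CD40-KO-labelled library. Each point is a *Csf1r*-positive barcode with at least 1 such UMI, coloured where it was resident-like (77 and 70), and the coloured points lie toward the deep end, with median depths of 31774 and 32846 UMIs.

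Depth and membership moved together. Resident-like barcodes had a median of 31774 UMIs in WT and 32846 in the CD40-KO-labelled library, against 14381.5 and 14366.5 in the other *Csf1r*-positive barcodes. Scrublet, which scores droplets for holding more than 1 cell, marked 0 barcodes at its own threshold. The 442 and 265 highest scores of the libraries, a number set for this comparison, included 10 of 77 (13.0%) and 6 of 70 (8.57%), against 6.25% and 5.89% of the others. The median mitochondrial share was 2.31% and 2.69%.

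The resident-like share of *Csf1r*-positive barcodes had no stable order between the libraries. It was 77 of 4223 in WT, 1.82% (exact binomial interval 1.44% to 2.27%), and 70 of 2650 in the CD40-KO-labelled library, 2.64% (2.06% to 3.33%). By depth in WT it was 1 of 155, 3 of 993, 11 of 1645, 33 of 1125 (2.93%) and 29 of 305 (9.51%) in barcodes of 3000 to 5000, to 10000, to 20000, to 40000 and over 40000 UMIs. In the CD40-KO-labelled library it was 0 of 281 (interval up to 1.30%), then 1 of 475, 10 of 913, 30 of 659 (4.55%) and 29 of 322 (9.01%). In both libraries the share was highest over 40000 UMIs, where the intervals of 6.46% to 13.4% and 6.11% to 12.7% overlapped.

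After every barcode was thinned to 3000 UMIs, with 2 UMIs of 2 genes required, the share was 23 of 4223 in WT, 0.545% (0.346% to 0.816%), and 9 of 2650 in the CD40-KO-labelled library, 0.340% (0.155% to 0.644%). The order was the opposite of that in the deposited counts, and the intervals overlapped. Ratios between the libraries given below after thinning rest on these 23 and 9 barcodes of 3000 UMIs each. Single UMIs weigh on such sums. Of the barcodes chosen at full depth 19 of 77 and 9 of 70 were also chosen after thinning. Without the *Malat1* limit the shares were 2.11% and 1.86%, again in the opposite order.

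**Figure D2:**
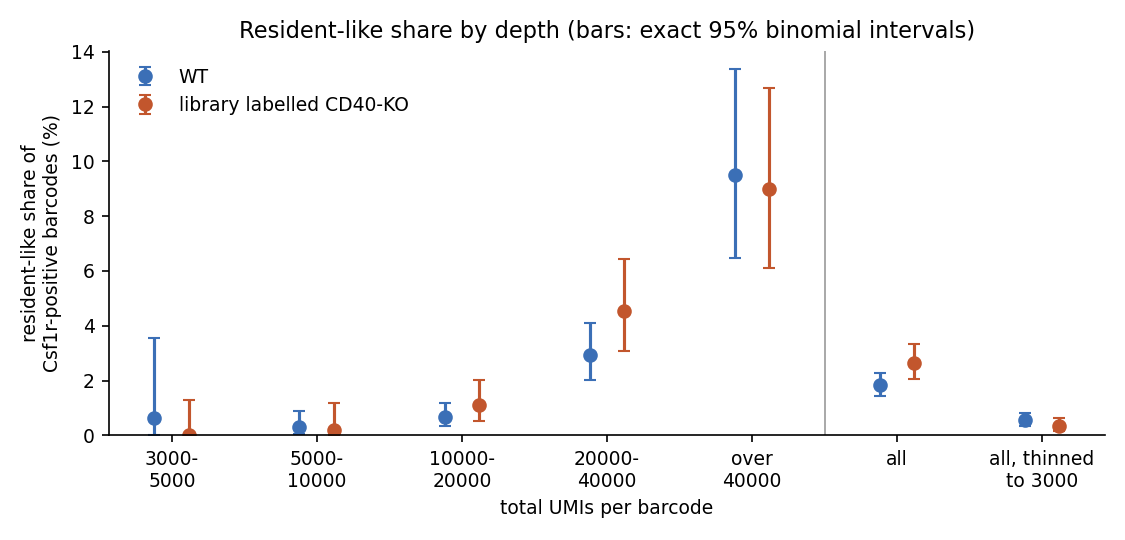
Resident-like share of *Csf1r*-positive barcodes (%, vertical) by total UMIs per barcode, over all barcodes, and over all after thinning to 3000 UMIs, for WT and the CD40-KO-labelled library. Points are shares and bars exact 95% binomial intervals; the share was 9.51% and 9.01% over 40000 UMIs, and over all barcodes 1.82% and 2.64% before thinning and 0.545% and 0.340% after it.

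Against the other *Csf1r*-positive barcodes of the same library, the resident-like barcodes carried more of 8 of 15 measured genes from a list of resident cardiac macrophage genes. The comparison follows from the rule and is described without a test. Genes with a mean of 20 CPM entered and were counted at 1.5-fold, a log2 ratio of 0.58, in both libraries. Of 5858 measured genes outside the rule 26 were higher (0.444%) and 11 lower (0.188%). From the resident list 8 were higher and 0 lower. For each gene the log2 ratio nearer 0 of both libraries was taken, and 0 where their signs differed. Its median was 0.66 in the resident list against 0 over all measured genes, a value that this rule favours.

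*Cbr2*, a carbonyl reductase, led these genes with 116 CPM in WT resident-like barcodes against 32.1 in the others, and 87.8 against 26.6 in the CD40-KO-labelled library (log2 ratios 1.86 and 1.72). *Fcgrt*, the neonatal Fc receptor, had 123 against 42.5 and 84.6 against 29.2 (1.53 and 1.53). *Ltc4s*, which makes leukotriene C4, had 76.3 against 24.8 and 63.1 against 21.9 (1.62 and 1.53). In all 3 genes both libraries showed a similar step, and the resident-like level was the higher in each.

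*Mrc1*, the mannose receptor CD206, had 640 against 334 CPM in WT and 582 against 285 in the CD40-KO-labelled library. *Gas6*, which bridges dying cells to the TAM receptors, had 145 against 81.5 and 124 against 47.8. *Selenop*, a selenium carrier, and *Ednrb*, an endothelin receptor, were also higher, at log2 ratios of 0.71 and 1.07, and 0.66 and 0.66.

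Outside that list *Ccl8*, a chemokine, had 396 against 147 CPM and 265 against 81.6 (1.42 and 1.70), and *Cd81*, a tetraspanin, 90.9 against 44.8 and 118 against 59.8. *Serpinb6a*, a protease inhibitor, had log2 ratios of 0.81 and 1.17, *F13a1*, the factor XIII A chain, 0.79 and 0.69, and *Egr1*, an immediate early factor, 0.90 and 0.69. *Igf1*, a growth factor of reparative macrophages, was past the limit only in the CD40-KO-labelled library (0.54 and 1.63), as was *Mertk*, an efferocytosis receptor (0.37 and 1.01). The difference between the libraries was not tested. With the other barcodes weighted to the same depths the log2 ratios were 1.90 and 1.67 for *Cbr2*, 0.85 and 0.91 for *Mrc1*, 0.78 and 0.81 for *Cd81*, and 0.60 and 1.16 for *Gas6*.

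Several genes of resident cells lay below the floor and rest on few barcodes. *Vsig4*, a complement receptor, had 40 UMIs in 7 WT barcodes and 13 UMIs in 3 of the CD40-KO-labelled library. *Fcna*, a ficolin, had 36 UMIs in 18 barcodes and 38 in 19, which is 13.1 and 13.4 CPM against 1.42 and 2.45 in the others. *Hpgd*, which breaks down prostaglandins, had 27.4 and 36.7 CPM against 4.16 and 3.62. *Mgl2*, a lectin, went in opposite directions, with 19.3 against 5.76 CPM in WT and 7.05 against 20.1 in the CD40-KO-labelled library.

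**Figure D3:**
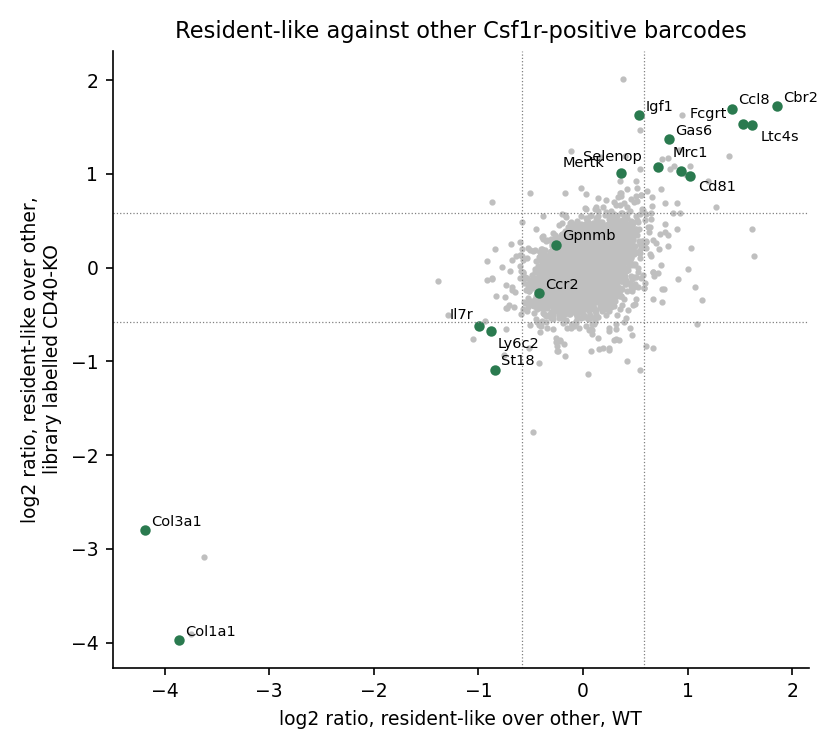
Log2 ratio of resident-like over other *Csf1r*-positive barcodes in WT (horizontal) and in the CD40-KO-labelled library (vertical). Each point is a measured gene outside the 4 selecting genes and dotted lines mark 1.5-fold; *Cbr2*, *Fcgrt*, *Ltc4s* and *Ccl8* lie at the upper right, while *Col1a1* and *Col3a1* lie at the lower left.

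Of 15 measured genes of recruited monocytes 0 were higher and 1, *Ly6c2*, was lower than in the other barcodes. Few genes of any kind were counted here, 0.444% of 5858 higher and 0.188% lower, so a count of 0 higher does not set this list apart. *Ly6c2*, a surface marker of inflammatory monocytes, had 39.4 CPM against 72.4 in WT and 112 against 180 in the CD40-KO-labelled library (-0.88 and -0.68), or -0.41 and -0.33 at matched depths, which is within the limit. *Ccr2* had 139 against 187 and 150 against 181 CPM (-0.42 and -0.27), also within it. After thinning, a *Ccr2* UMI was seen in 31.2% and 30.0% of resident-like barcodes against 37.8% and 36.4% of the others. *Il7r*, the interleukin-7 receptor, and the transcription factor gene *St18* were lower too, at 43.8 against 87.3 and 53.9 against 82.8 CPM, and at 39.1 against 70.1 and 37.0 against 78.7 CPM. At matched depths *Il7r* had log2 ratios of -0.92 and -0.50, the second within the limit, and *St18* -0.77 and -1.23.

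The resident-like barcodes overlapped with other macrophage states. At least 10 UMIs of *Gpnmb*, a marker of lipid-associated macrophages, were in 41 of 77 WT barcodes (53.2%) and 24 of 70 (34.3%), against 35.1% and 11.5% of the others. At equal depth and the lower limit of 1 UMI, *Gpnmb* was seen in 49.4% and 32.9% against 54.5% and 31.9%. Depth and limit both changed, so the 2 gaps cannot be compared. With the other barcodes weighted to the same depths the log2 ratios of *Gpnmb* were -0.32 and 0.17. At least 3 UMIs of *Ly6c2* were in 17 (22.1%) and 27 (38.6%), against 14.9% and 31.7% of the others. At equal depth a *Ly6c2* UMI was in 7.79% and 14.3% against 15.3% and 31.7%. MHC class II genes took at least 1% of UMIs in 7 and 2, against 11.4% and 9.26% of the others. None of the 3 limits on *Gpnmb*, *Ly6c2* and MHC class II was met by 25 and 30 resident-like barcodes. A thinned UMI of *Mki67* or *Top2a*, genes of dividing cells, was in 13 of 77 and 7 of 70 against 324 of 4146 and 285 of 2580.

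Set beside 3 other classes of *Csf1r*-positive barcodes, *Cbr2* and *Gas6* were highest in the resident-like ones. *Cbr2* had 116 and 87.8 CPM against 32.0 and 37.2 in *Gpnmb*-high barcodes, 24.8 and 18.7 in *Ly6c2*-high and 11.7 and 9.82 in MHC class II high ones. *Gas6* had 145 and 124 against 98.9 and 80.9, 43.1 and 27.7, and 23.3 and 12.1 CPM. *Ccr2* ran the other way against 2 of the classes, with 139 and 150 CPM against 346 and 266 in *Ly6c2*-high and 291 and 205 in MHC class II high barcodes, but 130 and 111 in *Gpnmb*-high ones. The classes held 1456 and 296, 415 and 713, and 362 and 192 barcodes.

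The 9 fibroblast genes summed to 17.9 CPM in WT and 26.8 in the CD40-KO-labelled library, against 282 and 287 in the other barcodes, with *Pdgfra* at 0 in both. Few barcodes carried the sums of the others: the median barcode had 0 and 28.7 CPM there and 0 and 27.1 CPM among resident-like barcodes, and 3 or more UMIs were in 2.12% and 12.7% against 1.30% and 14.3%. The 12 endothelial genes summed to 104 and 193 CPM, of which *Pdpn*, also a macrophage gene, gave 94.9 and 185. The lymphatic endothelial genes *Prox1*, *Flt4*, *Ccl21a* and *Mmrn1*, whose cells also carry *Lyve1*, had 2 and 1 UMIs in all. The 12 neutrophil genes summed to 1038 and 534 CPM against 956 and 589 in the others, the dendritic genes to 28.1 and 67.7, T, NK and B cell genes to 21.2 and 7.40, cardiomyocyte genes to 11.3 and 9.16 and red cell genes to 2.55 and 2.11. A single WT barcode held 75.9% of the T, NK and B cell UMIs.

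Between the libraries 5872 genes were measured in resident-like barcodes, of which 392 (6.68%) were 1.5-fold or more higher and 247 (4.21%) lower by as much in the CD40-KO-labelled library. In the other *Csf1r*-positive barcodes 327 (5.57%) and 184 (3.13%) of the same genes were. Of the 392 genes 240 were also counted higher there, and of the 247 genes 86 were also counted lower. Across the 5872 genes the log2 ratios in resident-like and in other barcodes had a Pearson correlation of 0.777. Of 90 measured ribosomal protein genes 24 were among the 392 and 2 among the 247, and their part in the counts was not tested. Of 17 measured resident genes 0 were higher and 1 lower, with a median log2 ratio of -0.21 against 0.003 over all measured genes. The 1 lower gene was *Ang*, a ribonuclease, at 26.3 CPM in WT and 17.3 in the CD40-KO-labelled library (-0.61, -1.16 to -0.06). *Cbr2* had -0.40 (-0.65 to -0.16) and *Mrc1* -0.14 (-0.23 to -0.04).

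Over the whole resident list the median was -0.21 in resident-like and -0.37 in other barcodes, with 1 and 6 of 17 genes lower, *Ang* in both. For several of its genes, and for *Mertk* outside it, the 2 values lay further apart. *Igf1* was 262 CPM in WT and 208 in the CD40-KO-labelled library (-0.34, -0.50 to -0.18), against 181 and 67.3 in the others (-1.43). *Mertk* was 80.3 and 87.4 CPM (0.12), against 62.3 and 43.5 (-0.52), and *Gas6* 145 and 124 (-0.22), against 81.5 and 47.8 (-0.77). The scavenger receptor gene *Colec12* was 24.8 and 26.1 CPM (0.07), against 13.4 and 3.93 (-1.77). The difference between the resident-like and the other barcodes was not tested. 1 barcode held 22.0% of *Igf1* UMIs in the CD40-KO-labelled library. Without the top barcode of each library the log2 ratio of *Igf1* in resident-like barcodes was -0.60, past the limit.

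Genes of efferocytosis and scavenging stayed mostly within the limit, as most measured genes did, of which 6.68% were higher and 4.21% lower. Of 19 measured efferocytosis genes 2 were higher, *Havcr2* (50.4 and 93.0 CPM, 0.89) and *Thbs1* (458 and 1087 CPM, 1.25), and 0 lower, with a median of -0.14. Of 12 scavenger receptor genes 0 were higher and 1 lower, *Cd5l* (31.0 and 18.7 CPM), with a median of -0.20. Of 13 iron and haem genes 1 was higher, *Slc11a1* (84.3 and 133 CPM), and 0 lower, and *Hmox1*, which degrades haem, was at 2106 and 1624 CPM (-0.37). Of 10 complement genes *Cfp* (107 and 179 CPM) and *C3* (19.3 and 44.4 CPM) were higher and *C4b* (28.1 and 18.3 CPM) lower. After thinning, the medians of the efferocytosis, scavenger and iron lists were above 0, at 0.22, 0.46 and 0.35.

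Among identity factors *Maf* was at 331 and 324 CPM (-0.03), *Id3* was higher (28.5 and 45.5 CPM, 0.68, or 0.57 and within the limit without the top barcode of each library) and *Klf2* lower (760 and 431 CPM, -0.82) of 14 measured. *Maf* encodes a factor that holds macrophages in their mature state. Over all measured genes 6.68% were higher and 4.21% lower.

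Of 15 measured genes of recruited monocytes 7 were higher in the CD40-KO-labelled library and 0 lower, with a median of 0.48: *Ly6c2* (39.4 and 112 CPM, 1.51), *Vcan*, a matrix proteoglycan (22.6 and 70.5 CPM, 1.64), *Thbs1*, *S100a4*, *Ifitm6*, *Chil3* and *Plac8*. *Ccr2* was at 139 and 150 CPM (0.10). Of 15 measured lipid-associated genes 0 were higher and 8 lower, with a median of -0.77, among them the fatty acid carriers *Fabp4* (204 and 82.1 CPM, -1.32) and *Fabp5* (4803 and 1964 CPM, -1.29), *Spp1*, osteopontin (8475 and 3993 CPM, -1.09), and *Gpnmb* (474 and 254 CPM, -0.90). In the other barcodes the medians of the lists were 0.51 and -1.01. Over all measured genes 6.68% were higher and 4.21% lower in resident-like barcodes. In the 14 and 11 barcodes of 5000 to 20000 UMIs the monocyte median was -0.50. After thinning, with 23 and 9 barcodes, *Fabp4* was at 1.35, on sums in which single UMIs weigh.

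Of 7 measured MHC class II genes 0 were higher and 2 lower, *H2-Aa* (639 and 354 CPM, -0.85, -0.97 to -0.74) and *H2-Eb1* (552 and 332 CPM, -0.73), with a median of -0.51 against 0.03 in the other barcodes. All measured genes together had 4.21% lower in resident-like barcodes. *Cd74*, the invariant chain, was at 1128 and 792 CPM (-0.51), against 1339 and 1410.0 in the others (0.07). The share of resident-like barcodes with MHC class II at 1% of UMIs was 9.09% and 2.86%, which is 7 and 2 barcodes, against 11.4% and 9.26% of the others.

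Of 11 measured cell cycle genes 0 were higher and 4 lower, *Ube2c*, *Tubb5*, *Top2a* and *Cenpf*, with a median of -0.49, while in the others 4 were higher and 0 lower, with a median of 0.49. Single barcodes weigh on this: 1 barcode of the CD40-KO-labelled library held 41.3% of *Top2a* and 58.3% of *Cenpf* UMIs. Without the *Malat1* limit the list's median was 0.05, and after thinning 0.35. Over all measured genes 4.21% were lower in resident-like barcodes and 5.57% higher in the others.

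**Figure D4:**
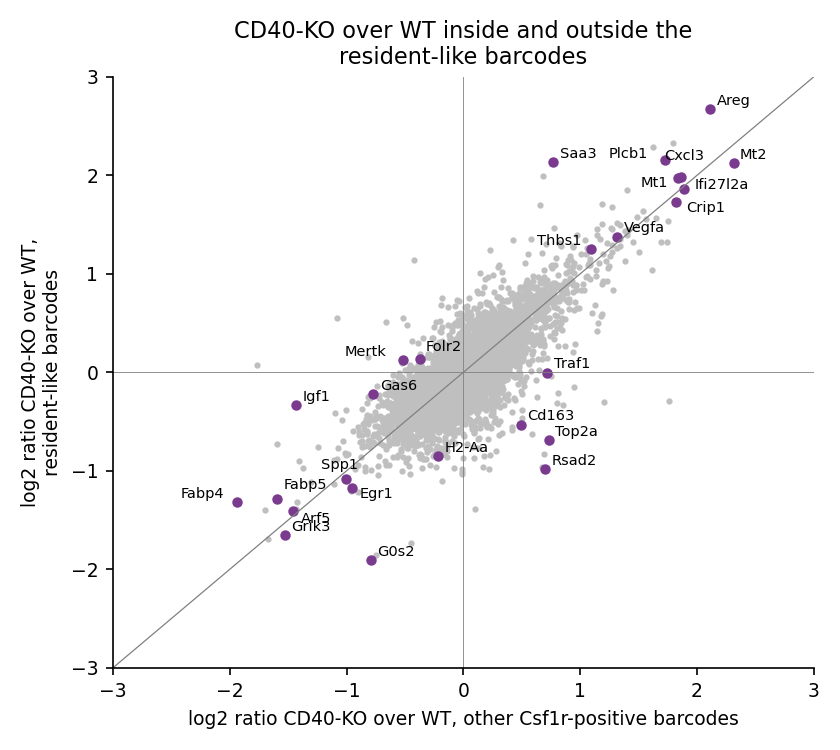
Log2 ratio of the CD40-KO-labelled library over WT for 5872 measured genes in the other *Csf1r*-positive barcodes (horizontal) and in resident-like barcodes (vertical). The diagonal marks equal ratios and both axes use the same 2 libraries; *Areg*, *Mt1* and *Cxcl3* lie high on both axes, *Fabp4* and *Grik3* low on both, *Igf1* at -1.43 and -0.34, and *Rsad2* at 0.70 and -0.98.

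Among all measured genes the highest ratio belonged to *Areg*, amphiregulin, a ligand of the EGF receptor, with 18.2 CPM in WT and 116 in the CD40-KO-labelled library (2.67, 2.24 to 3.13). It was seen in 13 and 38 barcodes. At a mean of 50 CPM and without ribosomal, mitochondrial, sex-linked and unnamed genes, *Plcb1*, a phospholipase C, followed with 87.2 and 387 CPM (2.15). The metallothioneins *Mt1* (250 and 977 CPM, 1.97) and *Mt2* (47.1 and 205 CPM, 2.13), which bind zinc, were higher as well, as were *Ifi27l2a* (510 and 1851 CPM) and *Crip1* (321 and 1066 CPM). In the barcodes left out for low *Malat1* the levels of *Mt1* were 304 and 1548 CPM, of *Crip1* 414 and 1960.1 and of *Ifi27l2a* 426 and 2147. The part of RNA from such barcodes in these ratios was not tested. Without genes over 3 times higher there the counts were 391 and 247. *Mt1*, *Crip1* and *Ifi27l2a* were not that much higher there, so these counts cannot tell that part.

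*Saa3*, an acute phase protein, had 68.6 and 301 CPM (2.13), with 40.9% of its UMIs in 1 barcode of the CD40-KO-labelled library, and 1.69 without the top barcode of each library. *Cxcl3*, a neutrophil chemokine, had 134 and 533 CPM (1.99), and *Ptgs2*, cyclooxygenase-2, 127 and 381 CPM (1.58). After thinning *Ptgs2* was at -1.23, and in barcodes of 5000 to 20000 UMIs *Saa3* was at -3.52. *Mmp19*, a matrix metalloproteinase (24.1 and 78.9 CPM, 1.71), *Ppbp*, a platelet chemokine (23.7 and 77.2 CPM, 1.70), and *Slc16a3*, a lactate exporter (27.4 and 87.4 CPM, 1.68), completed the upper group.

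Hypoxia and glycolysis genes, growth factors and chemokines were among those higher, where 6.68% of all measured genes were higher and 4.21% lower. Of 17 hypoxia and glycolysis genes 7 were higher and 0 lower, with a median of 0.47, including *Pgk1* (176 and 337 CPM, 0.93), *Bnip3* (22.3 and 45.8 CPM, 1.04) and *Vegfa*, which drives vessel growth (75.5 and 196 CPM, 1.38). Of 11 growth factors *Areg*, *Vegfa*, *Osm* and *Hgf* were higher and *Pdgfc* lower, with a median of 0.19. Of 16 chemokines *Cxcl3*, *Ccl24*, *Cxcl1* and *Ccl9* were higher and 0 lower, with a median of 0.07. *Ccl24* was at 16.1 and 40.9 CPM (1.35), with a log2 ratio of 0.42 in the others. In the other barcodes the list medians were 0.38 for hypoxia and glycolysis, 0.34 for growth factors and 0.16 for chemokines. The hypoxia list had a median of -0.23 after thinning.

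The lowest ratio belonged to *G0s2*, a lipase inhibitor that neutrophils also carry, with 104 CPM in WT and 27.8 in the CD40-KO-labelled library (-1.91, -2.28 to -1.54). *S100a9* (440 and 220 CPM), *S100a8* (279 and 148 CPM, -0.91) and *Csf3r* (86.1 and 44.8 CPM, -0.94) were lower in the same list, of which 0 of 6 measured genes were higher and 5 lower. The list median was -0.93, against -0.72 in the other barcodes, where 0 were higher and 5 lower as well. All measured genes together had 4.21% lower in resident-like and 3.13% lower in the other barcodes. At least 3 UMIs of *S100a8*, *S100a9*, *Csf3r* and *Retnlg* together were in 48 of 77 (62.3%) and 34 of 70 (48.6%) resident-like barcodes. The other barcodes, which were less deep, met that limit in 26.5% and 32.5%, and the part of depth in this was not tested. The part of neutrophil RNA in these ratios was not tested. In barcodes under that limit, which hold few UMIs of these genes by construction, *S100a8* and *S100a9* were at 0.42 and 0.28, while *G0s2* remained lower. After thinning *G0s2* was at 1.03. Other low ratios were those of *Grik3*, a glutamate receptor subunit (181 and 57.8 CPM, -1.65), *Arf5*, a small GTPase of membrane traffic (425 and 160 CPM, -1.41), *Syngr1* (344 and 138 CPM, -1.32) and *Egr1* (649 and 288 CPM, -1.17).

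Of 20 measured immediate early genes, which respond within minutes to signals and to tissue dissociation, 0 were higher and 7 lower, with a median of -0.40 against -0.24 in the others. Beside *Egr1* they were *Klf2*, *Jund*, *Dusp1*, *Fos*, *Btg2* and *Klf6*. Of 17 type I interferon genes 4 were lower, *Ifit3*, *Ifit2*, *Rsad2* and *Ifit1*, and 1 higher, *Oas1a*, with a median of -0.03. Without the top barcode of each library *Rsad2* was at -0.58 and *Ifit1* at -0.53, within the limit. Of 18 genes of CD40 signalling *Nfkbie*, *Map3k14* and *Birc2* were higher and *Nfkbia* lower, with a median of 0.09, and *Traf1*, an adaptor induced by NF-kB, was at 77.0 and 76.8 CPM, while the others had 55.6 and 91.5 (0.72). Of 12 proinflammatory genes 3 were higher and 2 lower, of 13 alternative activation genes 2 and 2, and of 24 lysosomal genes 0 and 2. In the other barcodes the counts for these 3 lists were 4 and 2, 1 and 0, and 0 and 7. Beside all list counts of this paragraph stand 6.68% of all measured genes higher and 4.21% lower, or 5.57% and 3.13% in the other barcodes.

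**Figure D5:**
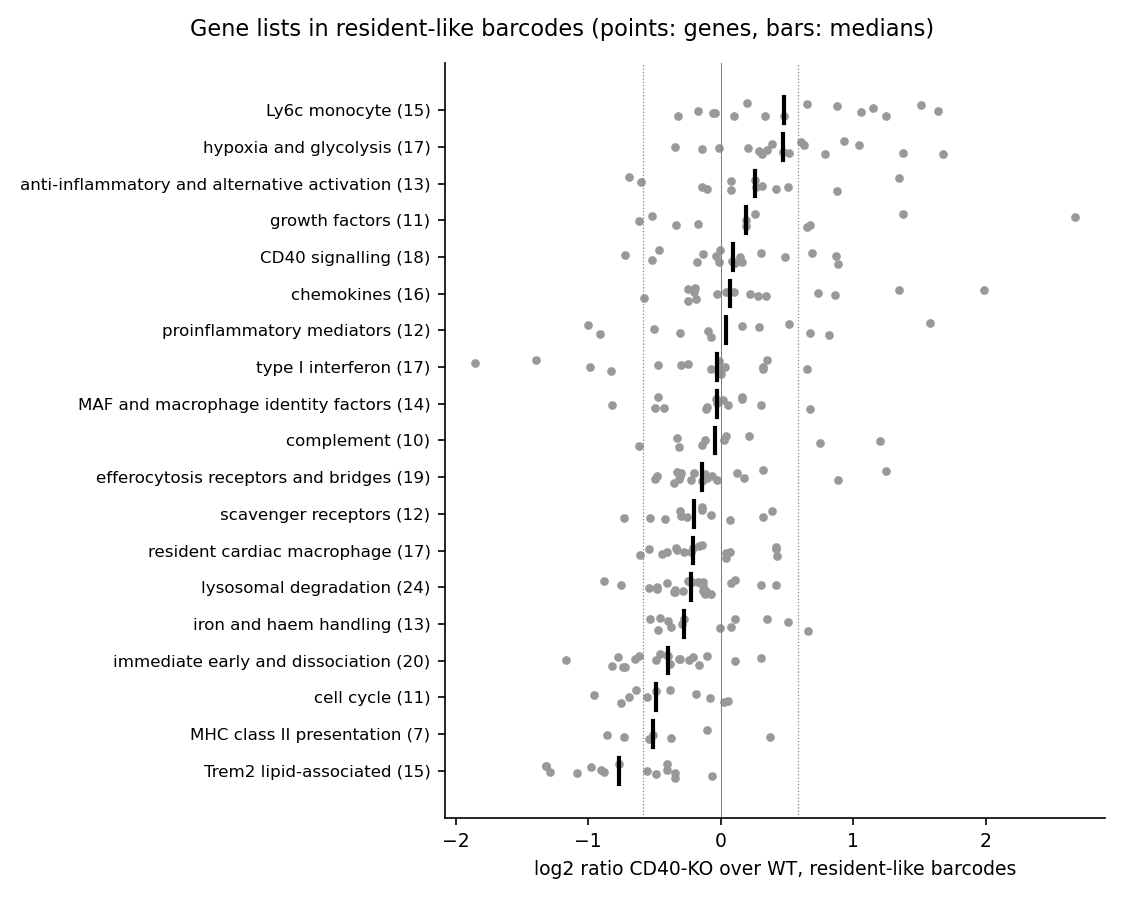
Log2 ratio of the CD40-KO-labelled library over WT in resident-like barcodes (horizontal) for the measured genes of 19 lists, with the number measured in brackets. Points are genes, black bars list medians and dotted lines 1.5-fold; the medians run from -0.77 for the lipid-associated list to 0.48 for the monocyte list, with the resident list at -0.21.

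Barcodes with *Lyve1* or *Timd4* (29 and 25) differed from those with *Folr2* and *Cd163* alone (48 and 45) in few genes at a mean of 50 CPM. This floor is higher than the 20 CPM used above, so the shares below cannot be set beside the earlier ones. Their median depths were 29702 and 39041 UMIs against 34256 and 32103. Of 3415 genes outside the rule at that floor 13 (0.381%) were higher and 2 (0.0586%) lower in both libraries. *Ltc4s* led, with 144 against 42.2 CPM in WT and 135 against 24.0 in the CD40-KO-labelled library (1.77 and 2.49). *H2-Aa* had 1030.2 against 443 and 452 against 300.4 CPM, and *Vcl*, vinculin, log2 ratios of 0.77 and 1.30. The lower genes were *Fabp5* (-0.69 and -0.81) and *Rsad2*, an antiviral enzyme (-1.58 and -0.85). A single barcode held 35.5% of the *Rsad2* UMIs of all WT resident-like barcodes, which weighs on its WT value.

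Below the floor of 50 CPM, *Fcna* had 32.7 against 3.29 CPM in WT and 23.9 against 7.63 in the CD40-KO-labelled library, and *Vsig4* had 31 against 9 UMIs and 11 against 2. *Cbr2* was 166 against 91.1 and 94.7 against 84.0 CPM, past the limit in WT alone. *Ccr2* was not lower in barcodes with *Lyve1* or *Timd4*, at 174 against 122 CPM and 150 against 150.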

How the data were processed

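Single-cell RNA was counted in 2 libraries, WT and CD40-KO, 1 each. Per the file headers the deposited values are raw UMI counts of 32285 genes from Cell Ranger 7.0.1. Cell Ranger, STAR and mm10 appear in the submitters' processing notes, and the use of intron reads is not stated there.

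UMIs were summed over the barcodes of a class per library and scaled to CPM. Ratios have exact conditional 95% intervals. Shares have Clopper-Pearson intervals, and a share of 0 among T, NK and B cells has the limit of 3 barcodes. Intervals cover counting error only. Genes with a mean of 20 CPM were called measured and were counted by size at 1.5-fold. Between resident-like barcodes with *Lyve1* or *Timd4* and those without, the floor was a mean of 50 CPM. Steps were checked on simulated counts. Barcodes were thinned to 3000 UMIs with seed 1. Doublets were kept, and Scrublet's own threshold marked 0, so its 442 and 265 highest scores served as an alternative. Comparison classes had 10 *Gpnmb* UMIs, 3 *Ly6c2* UMIs or 1% MHC class II UMIs, each without the limits before it. Positions came from GENCODE.

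Named genes were the selecting genes, a fixed set of macrophage genes, the 12 highest and 12 lowest ratios at 50 CPM in both contrasts without sex-linked, ribosomal, mitochondrial and unnamed genes, and the 2 highest and 2 lowest of each list. Genes outside that rule, among them *Ltc4s*, *Fcna*, *Mgl2*, *Colec12*, *Traf1*, *Vcl*, the marker genes of other cell types and further list members, were named after their values were seen. Some genes that the rule or a count takes in are not reported here. The barcodes, lists and tests were chosen with earlier results of these data known. Scrublet ran in scanpy 1.11.5, intervals came from scipy 1.17.1, sums from numpy 2.4.6 and pandas 2.3.3 under Python 3.11.15, and plots from matplotlib 3.10.9.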

Additional observations from a re-analysis of the deposited data

Results flagged for a closer look

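In 6 measured genes the CD40-KO-labelled library was at least 1.5-fold lower than WT in resident-like barcodes and at least 1.5-fold higher in the other *Csf1r*-positive barcodes, and this opposite direction brought them here. The difference was not tested. The log2 ratios in resident-like and in other barcodes were -0.98 and 0.70 for *Rsad2* and -0.83 and 0.69 for *Ifit1*, both interferon-induced antiviral genes. For genes of dividing cells they were -0.96 and 0.68 for *Ube2c*, -0.69 and 0.73 for *Top2a* and -0.71 and 0.73 for *Lig1*, a DNA ligase, and for the semaphorin receptor gene *Plxna4* they were -0.63 and 0.59. 1 WT barcode held 35.5% of the *Rsad2* UMIs and 1 barcode of the CD40-KO-labelled library 41.3% of the *Top2a* UMIs. Without the top barcode of each library the values in resident-like barcodes were -0.58, -0.53, -1.07, -1.18, -0.86 and -1.03 in the same order, so that *Rsad2* and *Ifit1* no longer passed 1.5-fold.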

How the results depend on the processing

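No paired analysis was possible because each group has 1 library. Main counts were 392 genes higher and 247 lower in resident-like barcodes of the CD40-KO-labelled library, and shares 1.82% in WT and 2.64% there. Thinning to 3000 UMIs left 23 and 9 barcodes and gave 1980 and 1801 genes (shares 0.545% and 0.340%). Barcodes of 5000 to 20000 UMIs, 14 and 11 in number, gave 1223 and 1568 (0.531% and 0.793%). In sums this small single UMIs weigh on the counts. Leaving out barcodes with neutrophil transcripts gave 703 and 545 (0.943% and 2.02%), with fibroblast or endothelial UMIs, *Pdpn* included, 889 and 765 (1.32% and 1.27%). The members with *Lyve1* or *Timd4* alone, a choice made after seeing the data, gave 728 and 518 (0.687% and 0.943%). No CPM floor gave 2195 and 1624, a floor of 100 CPM 140 and 50, and a fold limit of 2 gave 98 and 24. A minimum of 3 UMIs gave shares of 2.65% and 3.74%, of 8 UMIs 0.876% and 1.51%, and no *Malat1* limit 1.86% in the CD40-KO-labelled library. Against other barcodes 26 were higher and 11 lower, at fold 2 6 and 4, against barcodes without a UMI of the 4 genes 62 and 41, and without the highest Scrublet scores 41 higher.

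Of 280 list medians 30 moved and 28 changed sign, 4 of them from a main value over 0.3 either way: the monocyte list to -0.50 at 5000 to 20000 UMIs, hypoxia to -0.23 and cell cycle to 0.35 on thinning, and cell cycle to 0.05 without the *Malat1* limit. Of 2316 gene values 667 moved and 29 passed to the other side of 0. On thinning these included *Alyref* 0.35, *Cd200r1* 1.94, *Cd5l* 0.35, *Chil3* -0.65, *Fabp4* 1.35, *G0s2* 1.03, *Ifit2* 0.35, *Ptgs2* -1.23 and *Slc11a1* -0.65. At 5000 to 20000 UMIs they were *Cd5l* 2.91, *Chil3* -0.45, *G0s2* 0.27, *Havcr2* -0.19, *Ifit3* 0.10, *Map3k14* -1.12, *Pdgfc* 0.10, *S100a4* -0.041 and *Saa3* -3.52. Without neutrophil transcripts they were *Ang* 0.016, *Cd200r1* 0.085, *Rnf217* -0.27, *S100a8* 0.42 and *S100a9* 0.28. *C4b* was 0.13 without fibroblast or endothelial UMIs, *Map3k14* -0.053 at 8 UMIs, *Ube2c* 0.18 without the *Malat1* limit, and with *Lyve1* or *Timd4* alone *Ang* was 0.11 and *Ube2c* 0.17. Most of these settings leave fewer barcodes, and thinning leaves 23 and 9 of 3000 UMIs each. For the rest the cause was not tested.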
